A study of Mus musculus with 2 samples.

Results

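MicroRNAs (miRs) that are enriched in the brain were examined in sperm of naive wild-type (WT) mice. The members were chosen by name, with earlier results of these data known. They were both arms of miR-9, miR-124, miR-128, miR-129, miR-137, miR-138, miR-153, miR-218 and miR-219a. These made up 23 of the 1886 mature miR entries in the deposited tables. miR-132 and miR-212, on which the study centred its follow-up, were left out of this group. miR-124, a member here, was also a candidate in the study, which reported no altered expression of it after environmental enrichment. That result came from qRT-PCR of the active arm and not from the libraries used here. The study asked whether miRs in sperm of fathers kept in an enriched environment take part in passing enhanced synaptic plasticity to their offspring. For this purpose small RNA was sequenced from sperm of adult C57BL/6J mice, genotype wild-type and 3 months old according to the sample labels, in 2 libraries described as independent biological replicates of 1 condition. No enriched, home-cage, brain or offspring sample was analysed here, so no comparison of conditions could be made. The sperm had swum out of the dissected epididymis and was treated with a hypotonic detergent buffer against somatic cells. How many mice contributed to each library is not given in the sources used here.

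A miR is cut from a hairpin precursor, and usually the strand from either the 5′ side (5p) or the 3′ side (3p) is kept in the silencing complex as the guide, while the opposite strand, the passenger, is degraded. The guide recognises messenger RNAs mainly through its seed, bases 2 to 8 from its 5′ end. In the nervous system miR-124 is the classic miR of differentiated neurons, miR-9 acts in neural progenitors and neurogenesis, and miR-128 restrains neuronal excitability. miR-129, miR-137, miR-138 and miR-153 act at synapses or in neuronal maturation, miR-218 marks motor neurons, and miR-219a promotes the differentiation of oligodendrocytes, the myelinating glia. Mature sperm carries small RNA from spermatogenesis and takes up more during its passage through the epididymis.

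Mature sequences were found in RefSeq (GRCm38.p6) for 19 of the 23 entries. They are shown for the arms that carried most reads and for the guide arms on which no read was counted, with the seed in capitals, because the groups formed by abundance can be set against the sequences in this way. miR-124-3p is named only.
miR-9-5p: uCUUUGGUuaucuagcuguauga
miR-9-3p: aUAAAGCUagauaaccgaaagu
miR-128-3p: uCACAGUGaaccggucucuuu
miR-153-3p: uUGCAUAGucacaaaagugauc
miR-218-5p: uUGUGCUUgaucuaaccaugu
miR-129-5p: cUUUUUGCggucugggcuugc
miR-129-2-3p: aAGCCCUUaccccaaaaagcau
miR-137-3p: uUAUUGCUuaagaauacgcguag
miR-138-5p: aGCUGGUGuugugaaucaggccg
miR-219a-5p: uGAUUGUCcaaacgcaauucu
All of these seeds differ from each other. Among the 1608 entries of the table with a RefSeq sequence, no other entry with a read in either library had the same bases 2 to 8 as a member with reads and a sequence. The nearest entry in the table differed from miR-9-5p by 8 edits and from miR-128-3p by 7 edits. The letters of the miR-128-3p seed, CACAGUG, also occur 1 base further in, at bases 3 to 9, in miR-27a-3p and miR-27b-3p. These relatives in sequence were looked up after the counts had been seen. miR-27b-3p had 13071 reads in replicate 1 and 14257 in replicate 2, against 339 and 229 reads of miR-128-3p itself.

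Replicate 1 held 4049599 reads on miRs and replicate 2 held 5648067. Levels are given as CPM, reads of an entry per 1000000 miR reads of its library, and 3 reads, taken as the smallest level the depth can show, equal 0.741 CPM in replicate 1 and 0.531 CPM in replicate 2. Wilson 95% intervals on single libraries cover counting error only, since the reads carry no molecular identifiers. The biological coefficient of variation between the libraries, from the common dispersion of edgeR over 323 entries, was 35.9%. Of the germ-cell miRs (the miR-34b/c and miR-449 group), 5 of 9 entries had a read in both libraries, and their summed share was 0.390% in replicate 1 and 0.164% in replicate 2. The list for smooth muscle and stroma took 4.13% and 6.26%, that for epithelium 1.06% and 0.855%, that for blood 0.329% and 0.718%, and that for skeletal muscle 0.00222% and 0.00239%. The lists for smooth muscle and stroma and for epithelium thus took more of the reads than the germ-cell list in both libraries. The shares for smooth muscle and stroma, epithelium and blood differed between the libraries, while that for skeletal muscle was nearly equal. These differences were not tested. In bulk RNA of this kind, fewer cells of a type and less RNA per cell cannot be told apart.

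The neuronal miRs were read in the sperm libraries but took a small part of the miR reads. Whether these reads came from sperm or from residual other cells was not tested. Replicate 1 held 2173 reads on the neuronal miRs, which is 537 CPM (interval 515 to 560). Replicate 2 held 1362 reads, which is 241 CPM (229 to 254). The mean was 389 ± 209 CPM (SD, n = 2 libraries), and the share of the miR reads was 0.0537% and 0.0241%. Of the 23 entries, 9 had a read in each library (378 of 1886 entries of the table, or 20%, did). A read in either library was found for 12 (29.1% of all entries), which leaves 3 with reads in 1 library only, and 11 had no read at all (70.9% of all entries). At a stricter minimum of 10 reads in each library 6 of the 23 entries were left, where 12.9% of all entries passed. The median mean level of the 9 detected entries was 7.49 CPM, beside 7.02 CPM for the 378 entries of the table detected in both libraries.

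**Figure D1:**
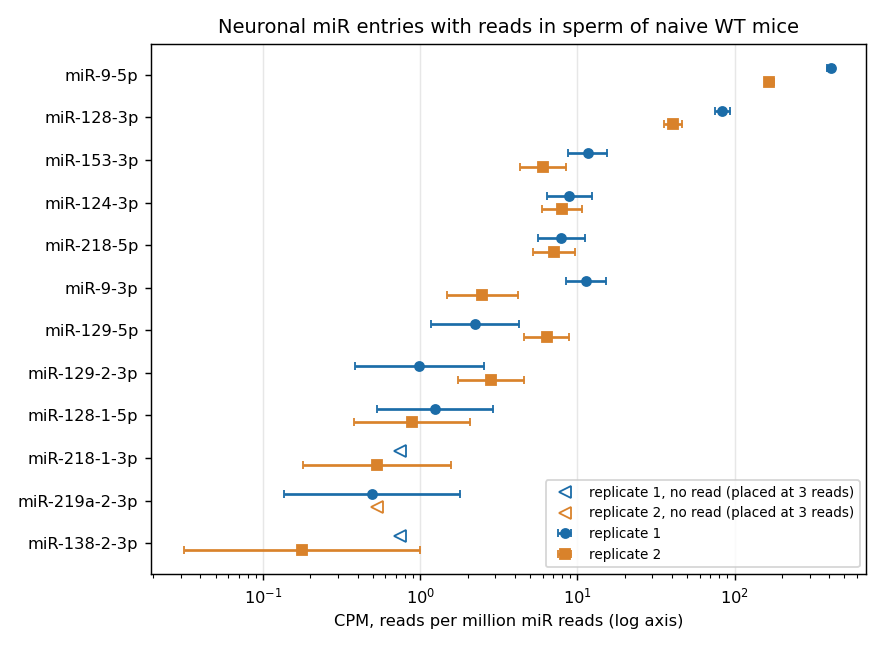
CPM (log axis) of the 12 neuronal miR entries with a read in either library, by library, ordered by mean CPM; circles are replicate 1, squares replicate 2, bars are Wilson 95% intervals, and open triangles mark a library without a read, placed at the level of 3 reads. miR-9-5p, at 408 and 166 CPM, and miR-128-3p, at 83.7 and 40.5 CPM, stand above all others in both libraries.

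The reads were concentrated on 2 guide strands. miR-9-5p, the guide of the neurogenic miR-9, was counted 1653 times in replicate 1 and 939 times in replicate 2. These counts equal 408 CPM (389 to 428) and 166 CPM (156 to 177). Replicate 1 was thus the higher library, and the intervals did not overlap. With a mean of 287 ± 171 CPM (SD, n = 2), miR-9-5p held rank 46 among the 378 detected entries. It stood between miR-146b-5p at 320.0 ± 75.8 CPM and miR-186-5p at 279 ± 10.7 CPM, and differed from neither by more than the SD between its own libraries. The miR-9 family as a whole, both arms together, made up 78.2% of the neuronal miR reads in replicate 1 and 70.0% in replicate 2.

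miR-128-3p followed at rank 98. Its 339 and 229 reads equal 83.7 CPM (75.3 to 93.1) in replicate 1 and 40.5 CPM (35.6 to 46.1) in replicate 2, with a mean of 62.1 ± 30.5 CPM (SD, n = 2). Again replicate 1 was the higher. Within each library miR-9-5p exceeded miR-128-3p, by 4.88 times in replicate 1 and 4.10 times in replicate 2, and miR-128-3p exceeded the next member, miR-153-3p, by 7.21 and 6.74 times. These steps in the order were larger than the differences between the libraries, as the lower library of the upper miR lay above the higher library of the lower miR in both cases.

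A group of 4 entries lay near the middle of the ranking with mean levels between 6.92 and 8.81 CPM. miR-153-3p, which targets genes of synaptic vesicle release, had 47 and 34 reads, or 11.6 and 6.02 CPM, at rank 173. miR-124-3p had 36 and 45 reads, or 8.89 and 7.97 CPM, at rank 176. The most typical neuronal miR was thus at a low level in both sperm libraries, and miR-9-5p had 45.9 times its reads in replicate 1 and 20.9 times in replicate 2. miR-218-5p, known from motor neurons, had 32 and 40 reads, or 7.90 and 7.08 CPM, at rank 185. miR-9-3p, the less abundant arm of miR-9, which is also active in neurons, had 46 and 14 reads, or 11.4 and 2.48 CPM, at rank 192. Its libraries lay further apart than those of the other members of this group. The mean CPM of neighbours within the group differed by at most 1.13 times. The libraries of miR-124-3p lay just above those of miR-218-5p, by less than the counting intervals, and those of the other neighbours overlapped, so that the order of these 4 entries is not resolved.

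The remaining detected entries were low. miR-129-5p, which has been linked to synaptic scaling, had 9 and 36 reads, or 2.22 CPM (1.17 to 4.22) and 6.37 CPM (4.60 to 8.82), at rank 215. miR-129-2-3p, the opposite arm of the hairpin of the second gene copy, had 4 and 16 reads, or 0.988 and 2.83 CPM, at rank 277. Both miR-129 arms were higher in replicate 2, opposite to miR-9 and miR-128. miR-128-1-5p had 5 reads in each library, or 1.23 and 0.885 CPM, at rank 310.

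Reads in 1 library only were seen for 3 entries. miR-218-1-3p had 3 reads in replicate 2, miR-219a-2-3p had 2 reads in replicate 1 and miR-138-2-3p had 1 read in replicate 2. All of these are at or below the level of 3 reads and do not show a difference between the libraries. No read was counted on miR-124-5p, miR-128-2-5p, miR-129-1-3p, miR-137-3p, miR-137-5p, miR-138-1-3p, miR-138-5p, miR-153-5p, miR-218-2-3p, miR-219a-1-3p and miR-219a-5p. Taken as 3 reads, the limit that a count of 0 allows was 0.741 CPM for replicate 1 and 0.531 CPM for replicate 2, and the upper Wilson bounds of these entries were 0.949 and 0.680 CPM. Hence the guide arms of miR-137, linked to neuronal maturation, of miR-138, linked to the size of dendritic spines, and of miR-219a of oligodendrocytes were not detectable at this depth, in contrast to those of the other 6 miRs.

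**Figure D2:**
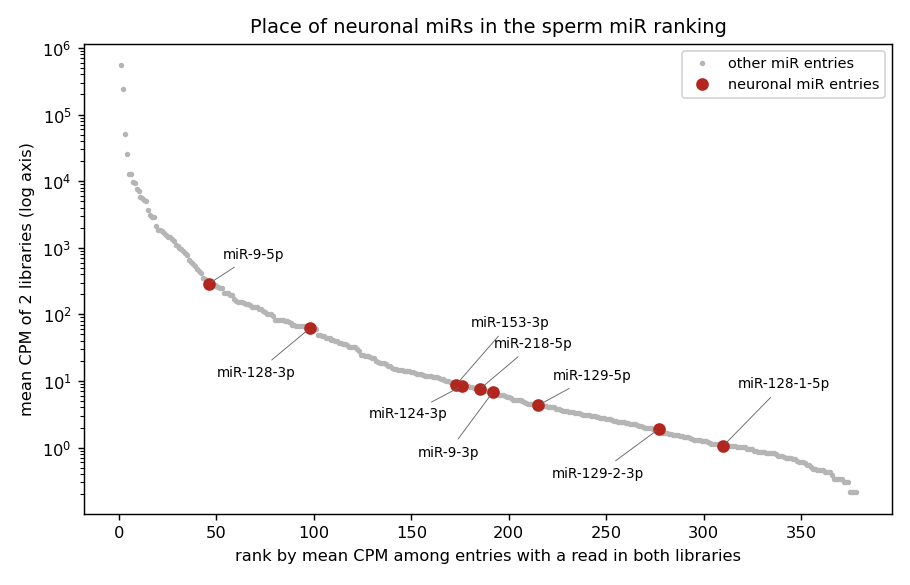
Mean CPM over both libraries (log axis) against rank for the 378 miR entries with a read in both libraries; red points are the 9 neuronal miR entries among them and grey points all others. miR-9-5p at rank 46 and miR-128-3p at rank 98 lie in the upper part, and the other 7 lie between rank 173 and rank 310.

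Use of the arms gave a measure that does not depend on the scaling of the libraries, since both arms are counted in the same library. For miRs with several genes, the reads of each arm were summed over the gene copies. For miR-9, the 5p arm took 97.3% of 1699 reads in replicate 1 (96.4% to 98.0%) and 98.5% of 953 reads in replicate 2 (97.5% to 99.1%). For miR-218, the 5p arm took all 32 reads in replicate 1 (89.3% to 100%) and 93.0% of 43 reads in replicate 2 (81.4% to 97.6%). These miRs were thus read mainly from the 5p arm, and the libraries lay close to each other.

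The 3p arm dominated for the other abundant miRs. For miR-128, it took 98.5% of 344 reads in replicate 1 (96.6% to 99.4%) and 97.9% of 234 reads in replicate 2 (95.1% to 99.1%). For miR-124, all 36 reads in replicate 1 and all 45 reads in replicate 2 were on the 3p arm, with lower interval bounds of 90.4% and 92.1%. For miR-153, all 47 and all 34 reads were on the 3p arm, with lower bounds of 92.4% and 89.8%. In each of these miRs, the arm with most reads was the arm that is known as the guide in the brain.

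miR-129 was the exception with a mixed use of arms. The 5p arm took 69.2% of 13 reads in replicate 1 (42.4% to 87.3%) and 69.2% of 52 reads in replicate 2 (55.7% to 80.1%). The ratio of 2.25 between miR-129-5p and miR-129-2-3p was the same in both libraries, although the number of reads differed. The major arm was the same in both libraries for 6 of the 6 neuronal miRs with at least 10 reads in each library, and for 97.8% of the 181 miR names of the table that met the same minimum and have both arms listed. The major arm took at least 90% of the reads, as a mean over the libraries, for 5 of these 6 miRs, beside 79.0% of the 181 names. miR-129 was the 1 name of the 6 below that share.

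**Figure D3:**
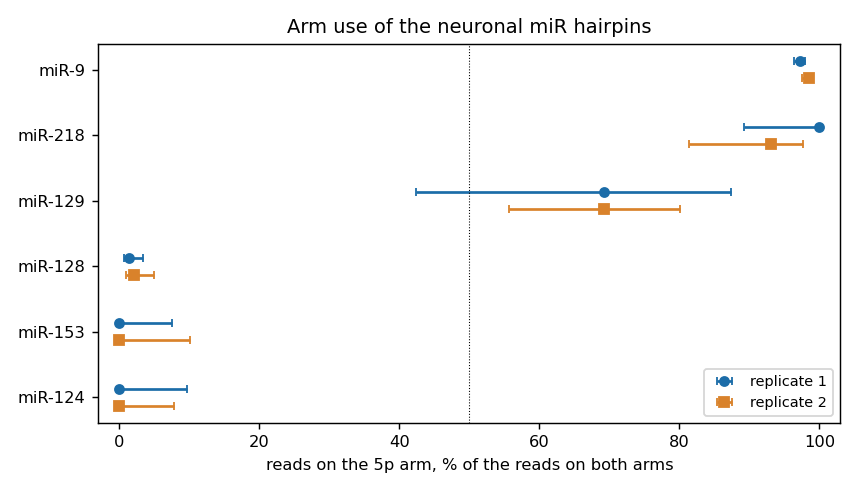
Share of reads on the 5p arm, in % of the reads on both arms, for the 6 neuronal miRs with at least 10 reads in each library; circles are replicate 1, squares replicate 2, and bars are Wilson 95% intervals. miR-9 and miR-218 lie at 93.0% or above, miR-129 at 69.2%, and miR-128, miR-153 and miR-124 at 2.14% or below.

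Most of these miRs are made from several genes whose guide arms are identical, so that the guide counts cannot be assigned to a gene. In the mouse genome GRCm38, the build named in the submitters' processing notes, RefSeq lists 18 hairpin genes for the 9 miRs on 13 chromosomes. In GENCODE M21 the hairpin lies within an intron of another gene on the same strand in 8 cases, overlaps an exon of a longer non-coding gene or pseudogene in 9 cases, and lies between genes in 1 case. The miR-9 hairpins are Mir9-1 (chr3:88215598-88215686, intron of Gm3764), Mir9-2 (chr13:83738814-83738885, exon of C130071C03Rik) and Mir9-3 (chr7:79505264-79505353, intron of Mir9-3hg), all on the plus strand. Both mature arms of miR-9 have the same sequence in all of these genes, so neither arm separates them. Mir153 (chr12:117250817-117250885, plus strand) lies in an intron of Ptprn2, which encodes a protein of secretory vesicles, and is the single gene of miR-153. The miR-124 hairpins, all on the plus strand, are Mir124a-1 (chr14:64590657-64590741, exon of Mir124a-1hg), Mir124a-2 (chr3:17795662-17795770, exon of Mir124-2hg) and Mir124a-3 (chr2:180894040-180894107, exon of Gm27032). Mir137, on which no read was counted, overlaps an exon of Gm26871 (chr3:118433857-118433929, plus strand).

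For other members the less abundant arm is listed separately for each gene copy. The intervals for the shares of these arms pool the reads of both libraries. The miR-128 genes are Mir128-1 (chr1:128202361-128202430, plus strand, intron of R3hdm1) and Mir128-2 (chr9:112118636-112118711, minus strand, intron of Arpp21). Their 3p arms are identical, while their 5p arms share the seed and differ by 7 edits, as shown here with the seed in capitals.
miR-128-1-5p: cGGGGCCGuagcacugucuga
miR-128-2-5p: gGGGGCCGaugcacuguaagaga
All 10 reads on these arms, 5 in each library, were counted on miR-128-1-5p. The exact 95% interval for the share of the Mir128-1 arm ran from 69.2% to 100%. This share compares passenger strands that survived and were counted, and it is not a measure of transcription of either gene.

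For miR-129 the reads on arms listed by copy were on the second copy. Mir129-2 (chr2:94241364-94241453, minus strand) lies in an intron of Mir670hg, and Mir129-1 (chr6:29022619-29022691, plus strand) overlaps an exon of Gm3294. All 20 reads on 3p arms listed by copy, 4 in replicate 1 and 16 in replicate 2, were on miR-129-2-3p. The exact 95% interval for its share was 83.2% to 100%. No sequence was found for miR-129-1-3p, so how far the 3p arms of the copies differ was not checked. The assignment of these reads to a copy thus rests on the listed names. As for miR-128, the share is not a measure of transcription of either gene. For miR-218, whose genes lie in introns of the axon guidance genes Slit2 (Mir218-1, chr5:48223942-48224051, plus strand) and Slit3 (Mir218-2, chr11:35616816-35616925, plus strand), the 3 copy-specific reads were on miR-218-1-3p. This number is too small to set the copies apart, with an interval of 29.2% to 100%. The same holds for the single read on miR-138-2-3p and the 2 reads on miR-219a-2-3p.

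The libraries were then compared entry by entry with a two-sided exact binomial test of the reads against the library totals, adjusted after Benjamini and Hochberg over the 323 entries with at least 10 reads in both libraries together. The test sets the libraries against counting error and does not compare conditions. Of the 9 neuronal entries tested, 5 differed between the libraries at an adjusted p under 0.05, beside 48.9% of all entries tested. In replicate 2, 4 were lower, where 39.9% of all entries were lower, and 1 was higher, where 8.98% were higher. The median log2 ratio of replicate 2 over replicate 1, on CPM + 0.5, was -0.32 for the 9 entries and -0.26 for all 323 entries.

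The lower members in replicate 2 were arms of miR-9, miR-128 and miR-153. miR-9-5p was lower by 2.46 times (log2 ratio -1.29, adjusted p = 3.43e-111 by the exact binomial test), and 73 of the 323 entries, or 22.6%, lay at least as far from the median ratio. miR-9-3p was lower by 4.58 times (log2 ratio -1.99, adjusted p = 2.05e-07, exact binomial test), and 13 entries, or 4.02%, lay at least as far. miR-128-3p was lower by 2.06 times (log2 ratio -1.04, adjusted p = 6.56e-17, exact binomial test) and miR-153-3p by 1.93 times (log2 ratio -0.89, adjusted p = 0.00833, exact binomial test). Of all entries, 33.1% lay at least as far from the median ratio as miR-128-3p and 39.3% at least as far as miR-153-3p. The share of the germ-cell miRs was also lower in replicate 2, 0.164% against 0.390%, as was that of epithelium, 0.855% against 1.06%. The shares of blood and of smooth muscle and stroma were higher, and that of skeletal muscle was 0.00239% against 0.00222%. Whether these differences have a part in the lower counts of the neuronal miRs was not tested.

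The other members differed in another way or not at all beyond counting error. miR-129-5p was higher in replicate 2 by 2.87 times (log2 ratio 1.34, adjusted p = 0.00886, exact binomial test). miR-129-2-3p had the same fold of 2.87 on fewer reads and did not pass (adjusted p = 0.122, exact binomial test). miR-124-3p and miR-218-5p had 0.896 times the CPM of replicate 1 in replicate 2, with adjusted p = 0.775 and 0.771 by the exact binomial test, and miR-128-1-5p had an adjusted p of 0.839. With TMM scaling, which moved the median log2 ratio of all entries from -0.26 to 0.04, 5 entries passed again, of which 3 were lower and 2 higher, beside 24.8% and 20.4% of all entries. miR-153-3p then no longer passed (adjusted p = 0.110, exact binomial test) and miR-129-2-3p passed (adjusted p = 0.0328, exact binomial test). The directions of miR-9-5p, miR-9-3p, miR-128-3p and miR-129-5p held under TMM scaling, while miR-124-3p and miR-218-5p changed sign, from log2 ratios of -0.15 to 0.16.

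**Figure D4:**
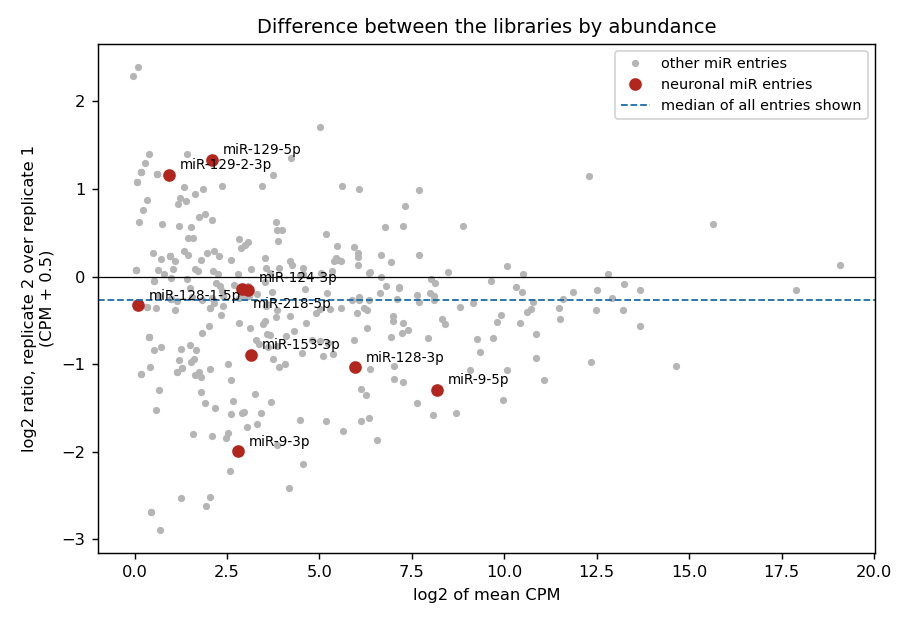
Log2 ratio of replicate 2 over replicate 1 (CPM + 0.5) against log2 of mean CPM for the 323 miR entries with at least 10 reads in both libraries together; red points are the 9 neuronal entries, grey points all others, and the dashed line is the median ratio of -0.26. miR-9-5p, miR-9-3p, miR-128-3p and miR-153-3p lie below the line, and miR-129-5p and miR-129-2-3p lie above it.

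A further list of 26 brain-enriched miR names outside the members was set beside them. It covers 54 entries of both arms, among them miR-7, miR-132, miR-134, miR-135, miR-212, miR-338 and miR-485. Of these entries 15, or 27.8%, had a read in each library, beside 39.1% of the 23 neuronal entries and 20% of the whole table. At least 10 reads in each library were found for 6 of them, or 11.1%, beside 26.1% of the neuronal entries and 12.9% of the whole table. Together they had 296 reads in replicate 1 and 411 in replicate 2, or 73.1 CPM (65.2 to 81.9) and 72.8 CPM (66.1 to 80.2). Their sum was thus level between the libraries when scaled by the library totals, and no other scaling was applied to it. A level sum does not mean level entries. miR-132-3p had 13 reads in replicate 1 and 40 in replicate 2, while miR-326-3p had 10 and 3, both named after their values were seen. Of the 15 entries of this list that were tested, 3 differed between the libraries, beside 48.9% of all entries tested. Without miR-9-5p the neuronal entries summed to 128 and 74.9 CPM, and without miR-9-5p and miR-128-3p to 44.7 and 34.3 CPM. The most abundant entry of the further list, named after its values were seen, was miR-135a-5p with 131 and 188 reads, or 32.8 ± 0.662 CPM (SD, n = 2), below the 62.1 CPM of miR-128-3p. miR-9-5p and miR-128-3p were thus the highest of all 77 brain-enriched entries examined. The members and the further list were both chosen with earlier results of these data known.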

How the data were processed

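Small RNA from sperm of naive WT mice was sequenced in 2 libraries. According to the study's methods and the submitters' processing notes, reads were trimmed by quality, adapters were removed with cutadapt 1.8.1, and reads were mapped with Bowtie 1.1.2, first without mismatches to miR and piRNA sequences. HTSeq is also named in the notes, as are the builds mm10 and GRCm38. The authors deposited raw read counts per mature miR and library, without normalization or pooling. A mapping without mismatches leaves out modified ends, which can lower counts. The table names carry a tag for treatment that the labels do not explain.

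Members were matched by name, and 5 summary entries were left out of the totals. Reads listed as assigned to no miR made up 38.1% of the reads in replicate 1 and 26.3% in replicate 2. CPM, Wilson and exact binomial intervals and tests were computed with Python 3.11.15 and scipy 1.17.1, and dispersion and TMM factors with edgeR 4.0.16, over entries with at least 10 reads in both libraries together. The size factors of DESeq2 1.42.0 served as another scaling. With 1 condition, no test between groups was possible, and the spread between the libraries may be technical in part. The binomial test and the Wilson intervals were tested on simulated counts that held counting error and set folds only. The simulation held no further spread between libraries, so it does not show how the test behaves under the spread of these data. All member entries with reads are named, as are the neighbours of the most abundant member. Entries with reads and the same seed as a member were to be named too, and none was found outside the members. This search covered the 19 member entries and the 1608 entries of the table with a RefSeq sequence. It left out miR-124-3p and miR-219a-2-3p, which have reads but no sequence there. The members, the further brain list and the marker lists were chosen with earlier results of these data known. Hairpin positions come from RefSeq (GRCm38.p6) and host genes from GENCODE M21.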

Additional observations from a re-analysis of the deposited data

How the results depend on the processing

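Of the neuronal entries, 9 were detected at the minimum of 1 read per library and 5 at a minimum of 20 reads. The other minimums in each library gave between 6 and 9, and a read in either library gave 12. Thinning replicate 2 to the miR read total of replicate 1 gave 9, and each library alone gave 10 to 11. With arms merged, which counts miR names and not entries, 6 of the 9 names were detected. The summed level of 389 CPM was 102 CPM without miR-9-5p, and 1833 CPM when the 2 most abundant entries of the table were left out of the total, which changes the denominator only. It was 374 CPM with TMM or DESeq2 scaling, 255 CPM of all reads listed, and lay between 241 and 537 CPM with each library alone. This range shows no stability, since either of 2 libraries falls inside 1 SD of the mean by construction. The number of entries that differed between the libraries was 5 with TMM, with DESeq2 size factors and without the filter on low counts, although under TMM miR-129-2-3p took the place of miR-153-3p. The median log2 ratio of -0.32 lay between -0.44 and -0.09 under all alternatives tried. No paired analysis was possible because there is 1 condition. Depth limits the statements on the 14 entries with fewer than 3 reads in a library.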
